A study of Phanerodontia chrysosporium with 8 samples.

Results

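A set of 112 gene models of the white-rot fungus Phanerodontia chrysosporium, strain RP-78, was followed through fruiting. The models held a similar level in vegetative mycelium and in young fruiting bodies and stood higher in fruiting bodies that had begun to release spores. They were chosen from the 12746 models of the deposited log2 RPKM matrix (reads per kilobase of model and per sequencing depth), of which they are 0.879%. They were chosen by 3 conditions on these values. The means of mycelium and young fruiting bodies differed by less than 1 on the log2 scale, the median of the 3 fruiting body libraries lay at least 1 (2-fold) above the young fruiting body mean, and that median was at least 2 (4 RPKM). All 8 libraries were used in the choice, so the levels and rises of the members are a description, and none of them is supported by a test here.

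The series holds 8 libraries of polyadenylated RNA from bulk tissue at 3 stages. Vegetative mycelium (n = 3), the feeding hyphal mat, young fruiting bodies (n = 2), dense initials set off from the mycelium around them, and fruiting bodies (n = 3), taken when spores had become visible on the dish lids, all came from the unmodified strain RP-78. Cultures were kept dark at 37 °C over 7 days, on agar covered by cellophane, and fruited after a move to 25 °C, moist air and dim light. At which of these settings the mycelium was harvested is not given, so in comparisons with it the stage cannot be told apart from light, temperature and age. The libraries of a stage are described as biological replicates without naming separate cultures, so the spread between them may be partly technical. In bulk tissue, fewer cells of a type and less RNA per cell cannot be told apart.

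White-rot fungi break down the lignin of wood with secreted oxidative enzymes, and this species has long served as a laboratory model of that process. Its fruiting body is a thin crust on the substrate. The spore-bearing surface, the hymenium, carries basidia, the cells in which nuclei fuse, meiosis takes place and spores are formed and shot off. Between initials and spore release, basidia and spores ripen. The deposited files carry JGI protein identifiers with no gene names, products or positions, so members are named by identifier, their roles are not given, and no sequence is shown.

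Uniquely mapped reads ranged from 16144543 to 35837246 per library. Of the fruiting body libraries, replicate 3 was the one unlike the others. Its log2 CPM correlated with replicates 1 and 2 at r = 0.898 and 0.918 across models, which are not independent replicates. Replicates 1 and 2 correlated with each other at 0.983. With the young fruiting body libraries, replicates 1 and 2 correlated at 0.965 to 0.974 and replicate 3 at 0.903 and 0.911. With the mycelium libraries, replicates 1 and 2 correlated at 0.788 to 0.836 and replicate 3 at 0.863 to 0.871. Replicates 1 and 3 had a flowcell to themselves, and replicate 2 was sequenced on the flowcell of the 2 earlier stages.

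The members were of moderate abundance and their rises were mostly small. The median member stood at 13.8 RPKM in mycelium, 12.5 RPKM in young fruiting bodies and 33.2 RPKM in fruiting bodies. The fruiting body median lay 1.00 to 3.85 above the young fruiting body mean on the log2 scale, with a median over members of 1.28, and 71 of the 112 members rose by less than 1.5. Over all 12746 models the median of the same difference was 0.0048. A difference of at least 2, or 4-fold, was reached by 15 members. In fruiting bodies 27 members were at 100 RPKM or more, 72 lay between 10 and 100 RPKM, and 13 were below 10 RPKM.

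Together the members took 0.457, 0.419 and 0.479% of unique reads in mycelium replicates 1, 2 and 3. They took 0.449 and 0.386% in young fruiting body replicates 1 and 2, and 0.880, 1.25 and 0.935% in replicates 1, 2 and 3 of the fruiting body. The share was higher in each fruiting body library, at 1.02 ± 0.200% (SD, n = 3), than in the young fruiting bodies, at 0.417 ± 0.0440% (SD, n = 2).

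The 3 fruiting body libraries did not carry the rise alike. In 20 members all 3 libraries lay at least 1 above the young fruiting body mean. Without young fruiting body replicate 1 such models numbered 37, of which 15 were among the 20, and without replicate 2 they numbered 21, of which 10 were. In 42 members this held for replicates 1 and 2 and not for replicate 3, in 46 for replicates 2 and 3 and not for replicate 1, and in 4 for replicates 1 and 3 and not for replicate 2. Replicate 2 was thus at least 1 above in 108 members (96.4%), replicate 3 in 70 (62.5%) and replicate 1 in 66 (58.9%). The rise in replicate 2 was measured on the flowcell that also carried the mycelium and young fruiting body libraries.

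**Figure D1:**
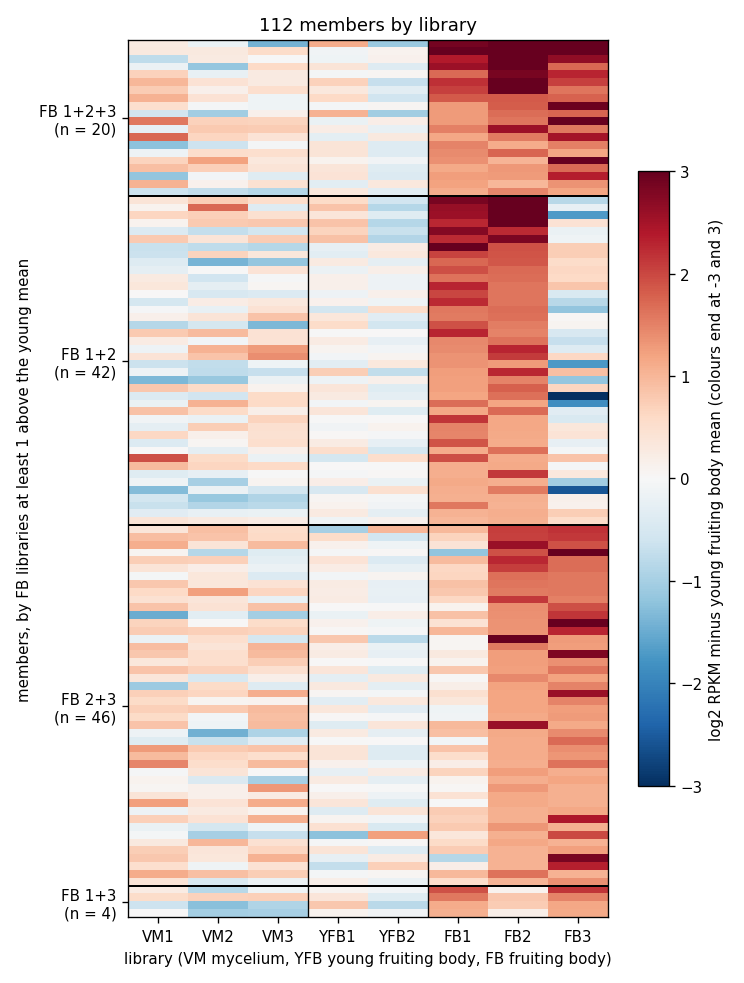
Heat map of the 112 members (rows) in the 8 libraries (columns), as log2 RPKM minus the member's young fruiting body mean, with colours ending at -3 and 3. Rows are grouped by which fruiting body libraries lie at least 1 above that mean: 20 members in all 3, 42 in replicates 1 and 2, 46 in replicates 2 and 3 and 4 in replicates 1 and 3.

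The libraries also differed in how many other models they raised. Of the 9114 models whose means in mycelium and young fruiting bodies differed by less than 1, replicate 1 alone would place 112 at least 1 above the young fruiting body mean and at or above 2, of which 46 are not members. Replicate 2 alone would place 156, of which 48 are not members, and replicate 3 alone 665, of which 595 are not members. A rise in replicate 3 was thus far more frequent among flat models than a rise in replicate 1 or 2. Of the 46 members carried by replicates 2 and 3, replicate 1 lay 0.5 to 1 above the young fruiting body mean in 23. Of the 42 members carried by replicates 1 and 2, replicate 3 lay in that range in 12.

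**Figure D2:**
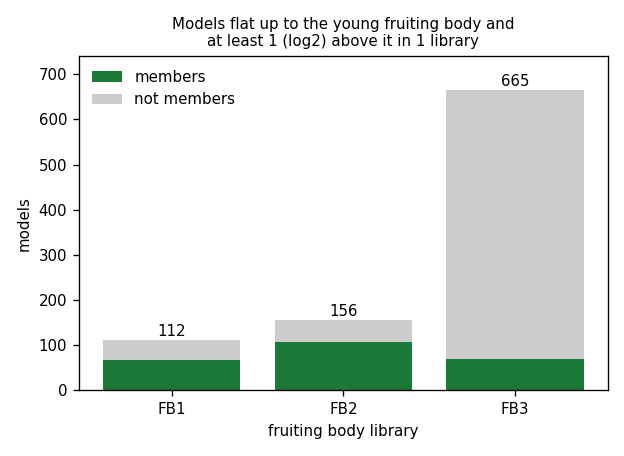
Number of models that differed by less than 1 (log2) between mycelium and young fruiting bodies and lay at least 1 above the young fruiting body mean, and at or above 2, in a single fruiting body library. Members are green and other models grey, and the totals are 112, 156 and 665 in replicates 1, 2 and 3.

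The 6 members with the largest rise among those carried by all 3 libraries are given first. In these 6, and in no other member, each fruiting body library lay at least 1 (log2) above every earlier library. The 6 were picked for their rise in these same libraries, so this separation follows in part from the choice. The share of all models that did so was not counted. By any margin, each fruiting body library lay above every earlier library in 45 of the 112 members and in 3.88% of all models. Model 2978679 (496 bp) had the largest rise of all members. It stood at 14.0, 10.1 and 4.37 RPKM in mycelium replicates 1, 2 and 3, at 25.3 and 5.37 RPKM in the young fruiting bodies, and at 85.4, 168 and 262 RPKM in replicates 1, 2 and 3 of the fruiting body. The fruiting body libraries lay above all others, although the young fruiting body libraries differed widely from each other. Its fitted log2 fold change of fruiting body over young fruiting body was 3.49 ± 0.81 (SE, edgeR, adjusted p = 0.257). The fold change was 5.01 and 2.7 without young fruiting body replicates 1 and 2.

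Model 2937807 (1020 bp) stood at 2.66, 2.68 and 3.20 RPKM in mycelium and at 2.02 and 2.36 RPKM in the young fruiting bodies. It reached 20.7, 20.1 and 118 RPKM in fruiting body replicates 1, 2 and 3. The 5 libraries before spore release were close to each other, and replicate 3 was the highest by far. Its fitted log2 fold change over young fruiting bodies was 4.61 ± 0.88 (SE, edgeR, adjusted p = 0.193) with all libraries. The fold change was 3.23 without fruiting body replicate 3.

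Model 3022893 (1554 bp) stood at 10.1, 20.7 and 17.0 RPKM in mycelium, at 15.7 and 18.7 RPKM in the young fruiting bodies and at 89.5, 204 and 109 RPKM in the fruiting bodies. Here replicate 2 was the highest, and the lowest fruiting body library was 2.11 (log2) above the highest of the other 5 libraries. Its fitted log2 fold change over young fruiting bodies was 2.96 ± 0.45 (SE, edgeR).

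Model 2990632 (687 bp) stood at 4.04, 2.06 and 6.98 RPKM in mycelium, at 6.03 and 3.50 RPKM in the young fruiting bodies and at 27.2, 83.5 and 15.1 RPKM in the fruiting bodies. Model 2978680 (593 bp) stood at 33.6, 18.0 and 25.2 RPKM in mycelium, at 20.0 and 21.9 RPKM in the young fruiting bodies and at 67.8, 150.0 and 102 RPKM in the fruiting bodies. Model 3031775 (2526 bp) stood at 8.90, 6.05 and 5.33 RPKM in mycelium, at 7.13 and 2.77 RPKM in the young fruiting bodies and at 20.2, 35.1 and 18.4 RPKM in the fruiting bodies. In these 3 models replicate 2 was the highest library, and no fruiting body library overlapped with the other stages.

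**Figure D3:**
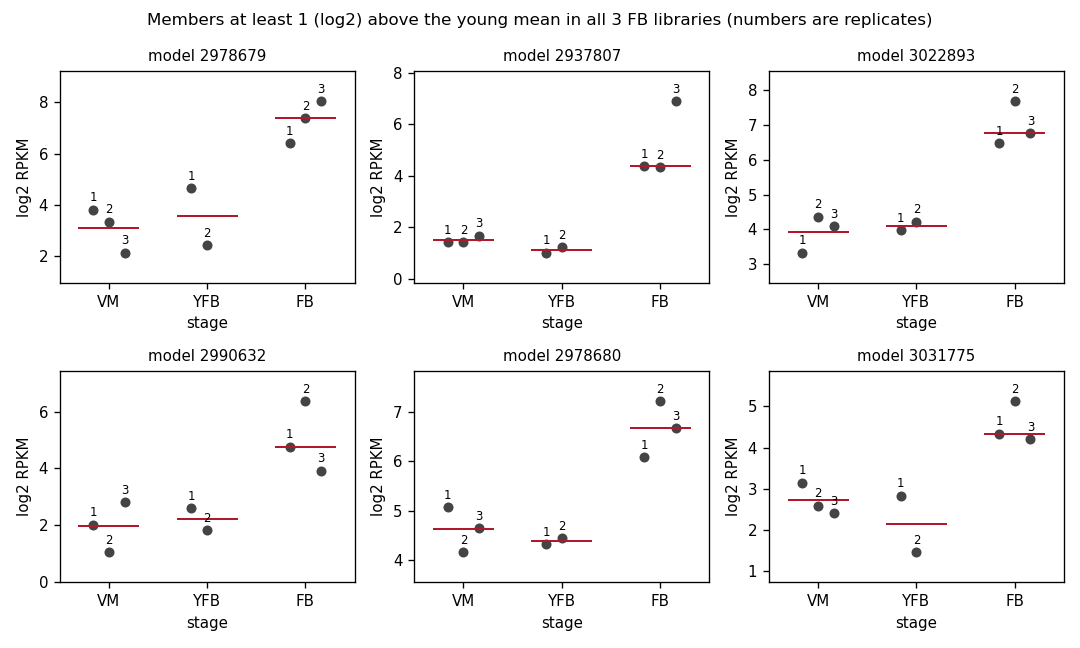
Log2 RPKM of the 6 members with the largest rise among those at least 1 above the young fruiting body mean in all 3 fruiting body libraries. Points are libraries with their replicate number, and lines are the mean of mycelium and of young fruiting bodies and the median of fruiting bodies; in each panel all 3 fruiting body points lie at least 1 above every other point.

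The 42 members carried by replicates 1 and 2 formed a group in which replicate 3 did not share the rise. Over these members the median difference from the young fruiting body mean was 1.58 in replicate 1, 1.63 in replicate 2 and -0.04 in replicate 3 (log2). Replicate 3 lay below the young fruiting body mean in 22 of the 42 and below the mycelium mean in 24, and in 8 it was at least 1 below the young fruiting body mean. The median fruiting body level of the group was 57.5 RPKM, against 23.7 RPKM in the members carried by all 3 libraries and 22.3 RPKM in those carried by replicates 2 and 3.

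Model 2967594 (456 bp) led this group, with 26.7, 34.2 and 29.6 RPKM in mycelium, 30.4 and 13.9 RPKM in the young fruiting bodies and 147, 177 and 11.5 RPKM in fruiting body replicates 1, 2 and 3. Replicate 3 was the lowest of all 8 libraries. Of its reads 2.10% were not unique. Model 3028246 (372 bp) had 18.0, 55.0 and 12.8 RPKM in mycelium, 30.3 and 9.14 RPKM in the young fruiting bodies and 102, 233 and 13.9 RPKM in the fruiting bodies. Its mycelium libraries differed more than 4-fold, and replicate 3 lay among them.

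Model 2232461 (877 bp) had 19.7, 21.0 and 17.8 RPKM in mycelium, 16.2 and 9.95 RPKM in the young fruiting bodies and 75.2, 101 and 3.93 RPKM in the fruiting bodies, so that replicate 3 lay below every other library. Model 9583, at 2991 bp one of the 2 longest members, had 13.5, 21.6 and 21.9 RPKM in mycelium, 22.8 and 6.96 RPKM in the young fruiting bodies and 60.5, 144 and 17.0 RPKM in the fruiting bodies. Its replicate 3 lay within the range of the mycelium libraries. Model 2910157 (579 bp), with 2.86% of reads not unique, had 18.6, 14.2 and 18.2 RPKM in mycelium, 19.9 and 5.87 RPKM in the young fruiting bodies and 51.1, 76.7 and 9.89 RPKM in the fruiting bodies. Replicates 1 and 2 lay above all 5 libraries of the other stages in all 5 of these models.

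In the 46 members carried by replicates 2 and 3, the median difference from the young fruiting body mean was 0.50 in replicate 1, 1.25 in replicate 2 and 1.5 in replicate 3 (log2). Replicate 1 was intermediate rather than low, and it lay below the young fruiting body mean in 6 of the 46. Against the mycelium mean its median difference was 0.07. The rise over mycelium was small in this group, with a median of 0.86 for the fruiting body median, and only 19 of the 46 reached 1.

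Model 4587 (1695 bp) had the largest rise in this group. It stood at 79.6, 115 and 91.0 RPKM in mycelium, at 30.7 and 124 RPKM in the young fruiting bodies and at 120, 260 and 276 RPKM in replicates 1, 2 and 3 of the fruiting body. Young fruiting body replicate 2 lay above fruiting body replicate 1, so the stages overlapped, and the low young fruiting body mean rested on replicate 1. Model 2143375 (805 bp) stood at 69.9, 66.7 and 55.5 RPKM in mycelium, at 53.4 and 25.3 RPKM in the young fruiting bodies and at 58.4, 153 and 159 RPKM in the fruiting bodies. Replicate 1 lay within the mycelium range.

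Model 2990627 (625 bp) stood at 8.64, 5.28 and 7.90 RPKM in mycelium, at 4.47 and 3.71 RPKM in the young fruiting bodies and at 5.44, 24.7 and 15.4 RPKM in the fruiting bodies. Model 2952135 (877 bp) had the widest spread among fruiting body libraries of all members and was singled out after its values were seen. It stood at 2.12, 1.11 and 1.55 RPKM in mycelium, at 1.93 and 2.05 RPKM in the young fruiting bodies and at 0.873, 7.53 and 50.3 RPKM in the fruiting bodies. Its replicate 1 was below every other library and its replicate 3 above every other one, a range of 5.85 on the log2 scale.

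Only 4 members were carried by replicates 1 and 3. Model 3038861 (708 bp) stood at 12.9, 6.14 and 10.1 RPKM in mycelium, at 11.6 and 10.4 RPKM in the young fruiting bodies and at 41.0, 11.8 and 48.3 RPKM in the fruiting bodies. Model 3005931 (1752 bp) stood at 11.7, 12.98 and 13.1 RPKM in mycelium, at 10.3 and 6.24 RPKM in the young fruiting bodies and at 23.9, 14.1 and 22.3 RPKM in the fruiting bodies. Model 2908387 (1569 bp) stood at 5.43, 3.45 and 4.45 RPKM in mycelium, at 14.6 and 4.73 RPKM in the young fruiting bodies and at 18.0, 14.1 and 18.6 RPKM in the fruiting bodies. In model 3038861 replicate 2 was level with the earlier stages, whereas in model 3005931 it was still above all 5 earlier libraries, and in model 2908387 young fruiting body replicate 1 lay above it.

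**Figure D4:**
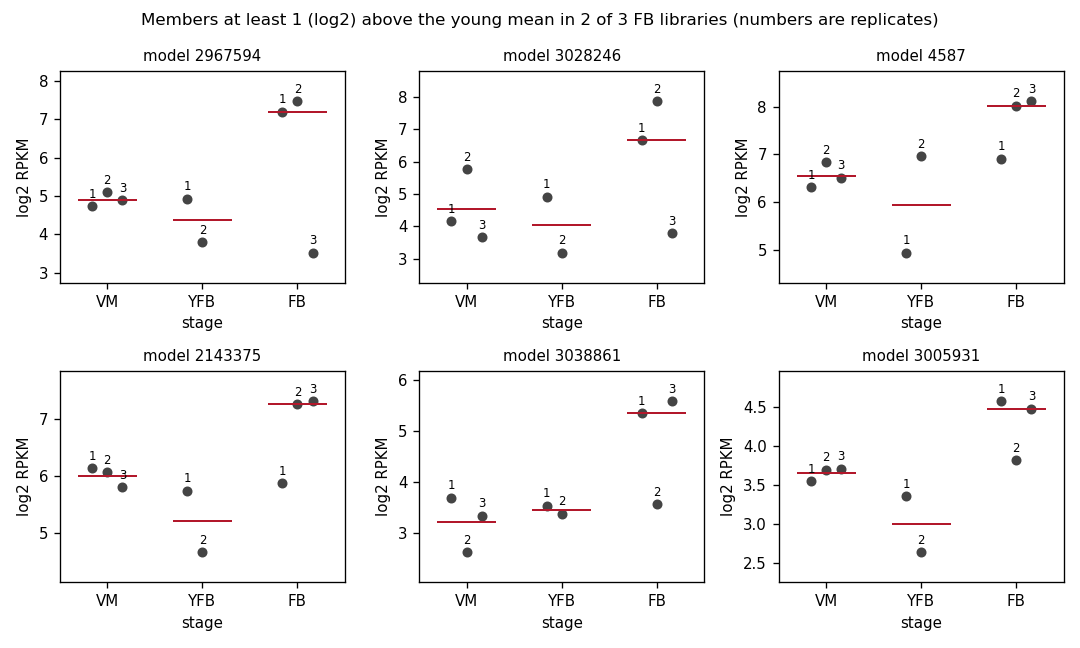
Log2 RPKM of 6 members with the rise in 2 of the 3 fruiting body libraries: models 2967594 and 3028246 (replicates 1 and 2), 4587 and 2143375 (replicates 2 and 3), and 3038861 and 3005931 (replicates 1 and 3). Points are libraries with their replicate number, and lines are the mean of mycelium and of young fruiting bodies and the median of fruiting bodies. By definition that median is the lower of the 2 libraries that carry the rise.

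The 4 most abundant members rose by 1.07 to 1.68 (log2) over the young fruiting body mean. Model 3014288 (650 bp) was the highest, with 704, 664 and 440 RPKM in mycelium, 612 and 433 RPKM in the young fruiting bodies and 793, 2226 and 1458 RPKM in fruiting body replicates 1, 2 and 3. Model 2891573, at 156 bp the shortest member, followed with 360.1, 319 and 247 RPKM in mycelium, 320.1 and 238 RPKM in the young fruiting bodies and 426, 1173 and 885 RPKM in the fruiting bodies. In both models every fruiting body library lay above the earlier stages, with replicate 1 only slightly above them.

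Model 3011303 (1167 bp) had 264, 226 and 242 RPKM in mycelium, 224 and 183 RPKM in the young fruiting bodies and 274, 448 and 426 RPKM in the fruiting bodies. Model 3053678 (1481 bp) had 206, 113 and 236 RPKM in mycelium, 259 and 195 RPKM in the young fruiting bodies and 490.4, 476 and 109 RPKM in the fruiting bodies. In model 3053678 replicate 3 was the lowest of all 8 libraries. The longest member, model 2920329 (2997 bp), had 42.2, 41.2 and 20.4 RPKM in mycelium, 33.5 and 18.9 RPKM in the young fruiting bodies and 48.3, 121 and 80.7 RPKM in the fruiting bodies.

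The second shortest member, model 2885656 (189 bp), had 4.04, 2.76 and 1.89 RPKM in mycelium, 4.54 and 3.09 RPKM in the young fruiting bodies and 4.05, 8.00 and 8.47 RPKM in the fruiting bodies, and as few as 7 unique reads in a library. Model 2990976 (893 bp) had no unique read in any library, so 100% of its reads were not unique. Its deposited values were 1.26, 4.03 and 2.06 RPKM in mycelium, 3.29 and 2.21 RPKM in the young fruiting bodies and 3.05, 6.24 and 7.57 RPKM in the fruiting bodies. These reads could belong to near-identical copies, so its membership is uncertain, and it was the 1 member that could not be tested on unique reads.

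**Figure D5:**
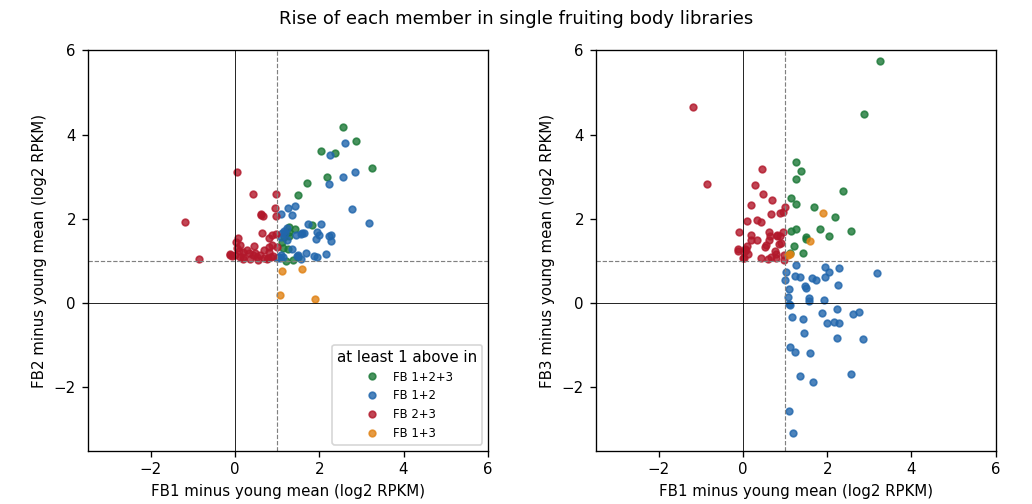
Difference from the young fruiting body mean (log2 RPKM) of each member in fruiting body replicate 2 (left) and replicate 3 (right) against replicate 1, with dashed lines at 1 and colours by the libraries at least 1 above. On the right the members carried by replicates 1 and 2 reach down to -3.08 in replicate 3, while on the left no member lies below 0.11 in replicate 2.

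Set against mycelium, the members divided. The fruiting body median lay at least 1 above the mycelium mean in 68 members and less than 1 above it in 44, with a range of 0.12 to 4.30 (log2). The young fruiting body mean was below the mycelium mean in 74 members, by more than 0.5 in 41, and above it by more than 0.5 in 18. Every member rose at least 1 over the young fruiting body mean, so all of the 44 had a young fruiting body mean below mycelium. The choice allowed such a dip, and some members that reached 1 above mycelium had it too. Model 3023023 (885 bp) had the smallest rise over mycelium, at 0.12. It stood at 24.7, 21.4 and 19.1 RPKM in mycelium, at 10.9 and 12.1 RPKM in the young fruiting bodies and at 22.4, 35.7 and 23.5 RPKM in the fruiting bodies, so that mycelium and fruiting bodies overlapped.

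The 3 members with the smallest adjusted p for fruiting body against mycelium were models 2916718, 3022893 and 2978680. Model 2916718 (1140 bp) stood at 54.1, 68.7 and 57.3 RPKM in the fruiting bodies, against 16.2, 15.0 and 13.9 RPKM in mycelium, a log2 fold change of 2.00 ± 0.22 (SE, edgeR). In the young fruiting bodies it stood at 31.0 and 20.2 RPKM, above every mycelium library. It was the 1 member called as risen between mycelium and young fruiting body (edgeR, Benjamini-Hochberg adjusted p below 0.05 over 12510 models), where 15.0% of all models were called higher. Models 3023023 and 3846 were called lower there, as were 10.9% of all models; model 3846 (1242 bp) stood at 37.0 and 21.8 RPKM in the young fruiting bodies, against 69.5, 48.7 and 51.7 RPKM in mycelium. None of the 3 was called without any 1 of the mycelium libraries or without young fruiting body replicate 1 (edgeR, adjusted p = 0.0516 to 0.334).

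Each fruiting body library lay above both young fruiting body libraries in 72 of the 112 members, which held for 10.2% of all models, and above all 5 mycelium and young fruiting body libraries in 45, against 3.88% of all models. At least 2 fruiting body libraries lay above those 5 in 101 members, against 16.3% of all models. In fruiting bodies against mycelium, 45 of 111 members tested were called higher (edgeR), where 18.4% of all models were. They were 15 of the 20 members carried by all 3 libraries, 14 of the 42 carried by replicates 1 and 2, 13 of the 46 carried by replicates 2 and 3, and 3 of the 4 others. Without mycelium replicates 1, 2 and 3 in turn the 45 became 28, 23 and 28, and without fruiting body replicate 2 they became 29. The share of all models called in those fits is not given here. Since the same libraries chose the members, neither the shares nor the counts of members are evidence of a rise.

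In fruiting bodies against young fruiting bodies edgeR with all 8 libraries called no member (the smallest adjusted p of a member was 0.106) and no model of the series (0.0%). At an unadjusted p below 0.05 (edgeR), 79 of the 111 members tested and 526 of all 12510 models tested were higher. The 526 include the 79 members. At the same limit 0 members and 461 of all models were lower. DESeq2 called 33 of the 111 members, where it called 1.07% of all models higher, and limma-voom called 0. Without fruiting body replicate 3, edgeR called 17 members, where 0.361% of all models were called higher. Of those 17, 13 were carried by replicates 1 and 2, the fruiting body libraries left in that fit, and 4 by all 3 libraries. Members were chosen by their rise over young fruiting bodies in the same libraries, so these counts are not evidence of a rise. The comparisons of fruiting bodies with mycelium and with young fruiting bodies share the fruiting body libraries.

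Length and the uniqueness of reads were not themselves conditions of the choice. The limit on level used RPKM, from total reads over model length, so length entered there and reads that were not unique counted. The members had a median length of 1014.5 bp (quartiles 669 and 1476), against 1221 bp (810 and 1780) over all models and 1327.5 bp over the 7522 models that were flat up to the young fruiting body and reached 2 in fruiting bodies. Models over 2000 bp made up 8.04% of members and 19.0% of all models, and models under 500 bp made up 14.3% and 8.90%. The replicates of a stage lay further apart in members, but these values come from the libraries whose means chose the members, and 1 low young fruiting body library helps a model to pass. The median gap between the young fruiting body libraries was 0.51 (log2) in members and 0.30 over all models, and it was at least 1 in 17.9% of members and 6.96% of all models. The median range over the mycelium libraries was 0.69 in members and 0.49 over all models. Over the 7522 flat models the median young fruiting body gap was 0.26 and the median mycelium range 0.41. Young fruiting body replicate 1 was the higher one in 66.1% of members and in 52.0% of all models. These shares and medians are descriptions without a test.

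All reads were unique in 101 of the 112 members, and apart from model 2990976 no member had more than 2.86% of reads that were not. The least covered library of the median member held 175 unique reads, against 278 over all models. Over the 7522 models that were flat up to the young fruiting body and reached 2 in fruiting bodies, it held 547.

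Of the members, 8 carried identifiers within 10 of another member, in 3 runs that were noticed after their values were seen. Of all 12746 models, 7817 have another model, member or not, within that distance. That count is no measure of how often members lie near other members, and whether 8 members is unusual was not tested. The identifiers are labels, and the files give no positions. Models that are not members also lay within that distance of the runs. Their median rise (log2) was -0.16 for 5 models near model 2978679. It was 0.08 for 3 models near model 2987097 and 0.34 for 3 models near model 2990632. Models 2978679 and 2978680, described above, stood beside model 2978674 (670 bp), which had 4.96, 2.47 and 2.88 RPKM in mycelium, 7.81 and 5.33 RPKM in the young fruiting bodies and 21.4, 23.7 and 9.44 RPKM in fruiting body replicates 1, 2 and 3. All 3 models of this run were high in fruiting body replicates 1 and 2, and model 2978674 was less so in replicate 3.

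Model 2990631 (673 bp) of the second run had 6.76, 4.37 and 5.63 RPKM in mycelium, 4.91 and 3.19 RPKM in the young fruiting bodies and 16.3, 48.7 and 12.0 RPKM in the fruiting bodies. Models 2990627 and 2990632 of the same run shared its peak in replicate 2. Models 2987095 (1030 bp) and 2987097 (832 bp) formed the third run, with 9.24, 12.3 and 23.4 RPKM and with 13.5, 17.0 and 57.1 RPKM in fruiting body replicates 1, 2 and 3. In both models replicate 3 was the highest of the 8 libraries, and mycelium replicate 1, at 13.8 and 16.8 RPKM, lay above fruiting body replicate 1.

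The opposite pattern was met by 79 models, which were flat up to the young fruiting body, stood at 2 or more there and lay at least 1 lower in the fruiting body median. All 3 libraries shared the fall in 24 of these 79 models (30.4%), whereas all 3 shared the rise in 20 of the 112 members (17.9%). Replicate 2 carried the fall in 67 of the 79, replicate 1 in 61 and replicate 3 in 54. The difference between these shares was not tested.

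At the limit on the rise, the smallest inside were those of models 2890333 and 1255435, at 1.00 and 1.02 (log2), and the nearest outside were models 2904904 and 1604054, both at 0.99. At the limit on the difference between young fruiting body and mycelium, models 2987097 and 3031833 lay inside with -0.98 and -0.98, and models 2902180 and 2880425 outside with -1.01 and -1.04. At the limit on level, models 3022145 and 3090580 stood inside at 2.03 and 2.28 (log2 RPKM), and models 1680978 and 1635473 outside at 1.49 and 1.36.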

How the data were processed

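The authors deposited counts of unique and total gene reads per gene model for each library, per the file headers, for 13602 models. They also deposited a matrix of log2 RPKM for 12746 of them, whose values equal the log2 of a model's total reads over its length plus 1 constant for each library, to within 0.00608 for 99% of models with at least 100 reads. Per the submitters' processing notes, limma 3.18.13, edgeR 3.4.2 and R 3.0.2 were used, in roles not stated. The aligner and genome release are not given in the sources used here. Per the labels' protocols the kit was TruSeq RNA v2, which marks no strand, so antisense overlaps cannot be told apart.

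Members were found in the log2 RPKM matrix, and RPKM in the text is 2 to the power of its values. Calls came from unique reads with edgeR 4.0.16 in R 4.3.3 (filterByExpr by stage, TMM, robust quasi-likelihood fit of all 8 libraries, stage only), with Benjamini-Hochberg adjustment over 12510 models, and the SE is the absolute log2 fold change divided by the square root of F. DESeq2 1.42.0 and limma-voom (limma 3.58.1) were alternatives. Replicates differed beyond sampling noise in every pair, with a chi-square of at least 69.2 for each degree of freedom. Members and lists were chosen with earlier results of these data known.

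Models were named by rule: the largest rises in each pattern of fruiting body libraries (6, 4, 3 and 3), the 4 highest others, the 2 longest and 2 shortest, the 2 with most non-unique reads, members with no unique read in an earlier library, the 3 smallest adjusted p against mycelium, and 2 on each side of each limit. Models named beyond it are models 2952135, 3023023, 3846, 2978674, 2990631 and 2987095.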

Additional observations from a re-analysis of the deposited data

How the results depend on the processing

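The choice gave 97 to 156 models when fruiting body libraries were averaged, when log2 RPKM came from unique reads, with log2(RPKM + 1), without the limit on level or on the shared flowcell alone, and 82 with that limit at 4. With the rise set at 1.5 it gave 41 models, 9 of them carried by all 3 libraries. Averaging the fruiting body libraries gave 101 models, of which 77 were among the 112. With each library left out in turn the choice gave 112 to 202 models, highest without fruiting body replicate 1, of which 60 to 106 were among the 112. Members carried by every remaining fruiting body library then numbered 21 to 66. They were 66, 24 and 62 without fruiting body replicates 1, 2 and 3, where 2 libraries remain to meet the condition. Without young fruiting body replicate 1 they were 37.

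The 0 members called higher at spore release than in young fruiting bodies became 33 under DESeq2 and 13 on the shared flowcell alone, where the single fruiting body library is assumed to vary like the other stages, and ranged from 0 to 17 with each library left out. Against mycelium the 45 became 25 with the flowcell as a covariate and 23 to 67 with each library left out. In young fruiting bodies against mycelium the 1 became 0 with the flowcell covariate, with limma-voom and with the replicate block, 4 with only the 2 stages compared, 5 on the shared flowcell alone, and 0 to 4 with each library left out. The cause was not tested. For most of these fits the share of all models called is not given here. No change in these counts is therefore read as particular to the members. In fruiting bodies against mycelium, 3055 of all models were higher at an unadjusted p below 0.05 (edgeR), and 3450 without fruiting body replicate 3.

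The replicate numbers were not taken to pair the samples. Deviations from the stage means of libraries of the same number correlated at -0.28, 0.19 and -0.10 between mycelium and fruiting body. They correlated at 0.20 and 0.13 between mycelium and young fruiting body, and at 0.14 and -0.09 between young fruiting body and fruiting body. The 2 young fruiting body libraries deviate from their mean in exactly opposite directions, so values with them cannot decide on pairing. Between mycelium and fruiting body, not every sample correlated best with its own number. With the replicate block, 39 members were called higher in fruiting bodies than in mycelium and 0 than in young fruiting bodies. The share of all models called with the block is not given here. Counting error limits models such as 2885656, with as few as 7 unique reads in a library.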
